A study of Homo sapiens with 4 samples.

Results

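The mitosis and G2/M genes described here are 44 genes whose products drive or carry out cell division. They were chosen by name, as every probe set that the array annotation gives to 1 of these genes alone. All 44 were found among 19775 genes that own a probe set, on 84 of the 54675 probe sets of the array. Expression had been measured in SUM159, an established human breast carcinoma line without hormone receptors, in cells carrying the doxycycline-inducible construct pTRIPZ with the microRNA miR-100. Cells were sorted by flow cytometry into fractions with and without aldehyde dehydrogenase activity (ALDH-positive and ALDH-negative), a sort used to enrich stem-like breast cancer cells, and each fraction grew in suspension, either with doxycycline (DOX) or without it. The groups were ALDH-positive DOX, ALDH-positive control, ALDH-negative DOX and ALDH-negative control, with 1 array each, and all 4, controls included, carried the construct. The labels disagree on the treatment: names and protocol give doxycycline for 10 h, whereas the sample descriptions give 13 h and doxorubicin, another drug. Cells of a single line were used, and cells without the construct that received DOX were not analysed here, so that an effect of the drug and one of miR-100 cannot be told apart.

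Entry into mitosis is driven by the kinase CDK1 bound to cyclins A and B, with PLK1, Aurora A and the CDC25 phosphatases upstream of it. The kinetochore then ties chromosomes to the spindle, the spindle checkpoint holds back the anaphase promoting complex until all are attached, and kinesins, the chromosomal passenger complex and proteins of the contractile ring separate the daughter cells. Most of these genes are transcribed late in the cell cycle, under the MuvB complex with B-MYB and FOXM1. In bulk RNA, fewer cells of a phase and less messenger RNA per cell cannot be told apart. Because miR-100 is what the construct expresses, its mature sequence as listed by RefSeq (GRCh38.p14) is shown beside its relatives miR-99a and miR-99b, with the seed, the bases 2 to 8 that pair with targets, in capitals.
hsa-miR-100-5p: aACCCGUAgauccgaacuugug
hsa-miR-99a-5p: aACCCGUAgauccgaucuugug
hsa-miR-99b-5p: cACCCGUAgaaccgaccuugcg
All 3 share the seed. Of the members, PLK1 has been reported as a miR-100 target in other cancer cells. The mature microRNA is not measured by these arrays, so its induction was not checked here.

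Values are log2 levels summarised by the authors with RMA, and a gene is represented by its brightest probe set by the mean of the 4 arrays. A level of 6 was taken as the edge of background, and 12365 genes reached it on some array. The arrays had nearly equal medians over all probe sets, between 6.18 and 6.22. Over the 12365 genes the median was 9.82 in the ALDH-positive DOX array and 9.69 in the ALDH-positive control. It was 9.70 and 9.71 in the ALDH-negative DOX and control arrays. With 1 array in each group no pair of arrays has a p-value, so a difference was called by size, at 2-fold (1 on the log2 scale) or more, where either array of the pair reached 6. The mesenchymal markers VIM, CD44, FN1, ZEB1, SNAI2 and CAV1 lay at 10.56 or more in every array. ESR1, PGR, CDH1 and EPCAM stayed under 6 throughout, while ERBB2 lay between 9.22 and 10.17. ALDH1A1, an enzyme behind the sorted activity, was at 10.66 and 11.77 in the ALDH-positive DOX and control arrays, against 10.86 and 10.72 in the ALDH-negative ones, so it was not higher in the ALDH-positive fraction under DOX. ALDH1A3, another such enzyme, was at 6.64 and 6.48 in the ALDH-positive DOX and control arrays, against 7.79 and 5.86 in the ALDH-negative ones. It was thus lower in the ALDH-positive fraction under DOX and higher in the control. Of 8 immune markers with a probe set 1 reached 6 (MS4A1, in the ALDH-positive DOX array), and the mean of that list lay between 4.53 and 4.89. Of 5 endothelial markers VWF, CDH5 and TEK stayed under 6, while PECAM1 was at 7.56 and 5.96 in ALDH-positive DOX and control cells against 9.62 and 9.77 in ALDH-negative ones, and KDR at 7.53 and 8.21 against 4.77 and 5.13. The mean of that list lay between 5.51 and 5.69. Of 2 erythroid markers with a probe set HBB reached 6, at 6.44 and 6.98 in ALDH-positive DOX and control cells against 5.62 and 5.77. The part of these in the results was not tested.

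All 44 members reached 6 somewhere, and 36 lay at 9 or more in every array. Their mean levels ran from 5.92 for INCENP, the scaffold of the chromosomal passenger complex, to 12.74 for TOP2A, the topoisomerase that untangles sister chromatids, where the median over the 12365 genes was 9.74. These are probe set levels, each with its own brightness, and give no order of transcript amounts between genes.

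**Figure D1:**
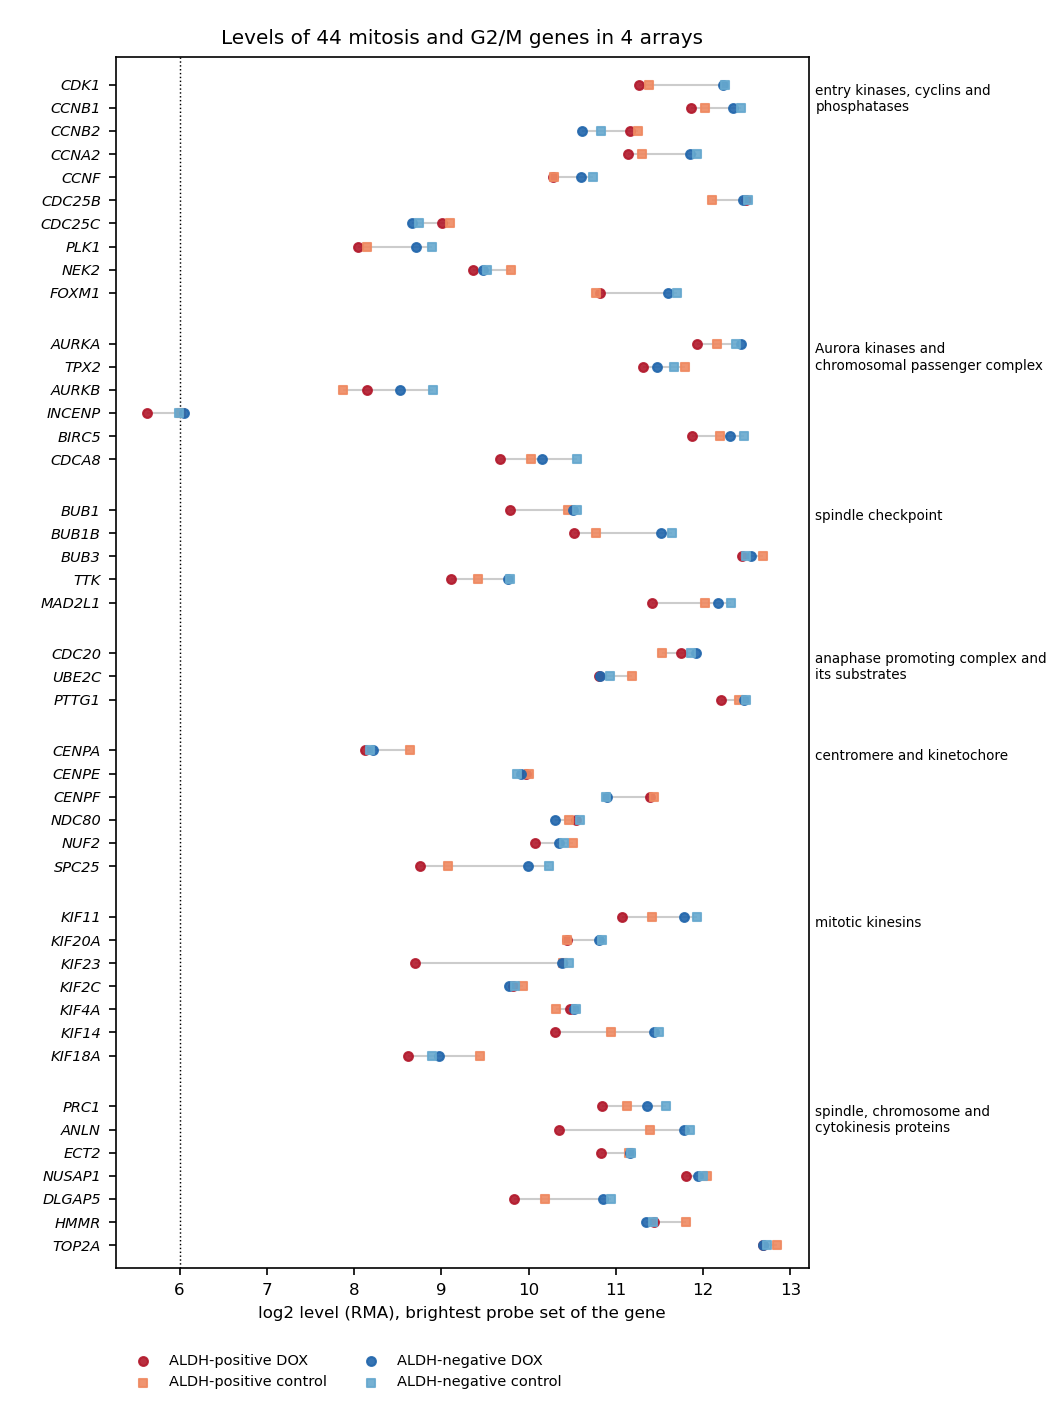
Log2 level (x axis, RMA, brightest probe set of the gene) of the 44 mitosis and G2/M genes (rows, grouped by role) in the 4 arrays, 1 point per array, with the background edge of 6 as a dotted line. ALDH-positive points lie left of both ALDH-negative ones for genes such as CDK1, FOXM1, BUB1B and SPC25, and the ALDH-positive DOX point of KIF23 stands alone at 8.70.

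Between the fractions, 11 members from 5 of the 7 roles were lower in ALDH-positive cells (9.58% of all genes were) in an additive model, while others such as CCNB2 and CENPF pointed the other way without passing it. In the control arrays 28 of 44 members lay below 0 (ALDH-positive minus ALDH-negative) with a median of -0.23, where 50.4% of all genes lay below 0 with a median of 0.00. In the DOX arrays 36 lay below 0 with a median of -0.36, where 44.3% of all genes did with a median of 0.08. By size, 2 members were 2-fold lower in the control pair (AURKB and SPC25; 4.4% of all genes were) and 5 in the DOX pair (SPC25, KIF23, KIF14, ANLN and DLGAP5; 5.32% of all genes). KIF23 was at -0.55 there on its probe set that is not shared with other transcripts. No member was 2-fold higher on its brightest probe set in either pair, where 6.09% and 11.4% of all genes were. In the DOX pair 1396 of all genes were 2-fold higher and 650 lower, or 1133 and 842 with centred arrays. These pairs have no array in common. Across the 44 genes their differences correlated with a Pearson's r of 0.666 and a Spearman's rho of 0.742, a description over genes that come from the same 4 hybridisations. In all, 26 members lay below 0 in both pairs, 6 above 0 in both and 12 on opposite sides.

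A limma model that adds an ALDH effect and a DOX effect, fitted to all 12365 genes, used the pairs as repeats of each other. Each gene had 1 residual degree of freedom, and nothing says that the arrays stem from separate sorts, so the p-values may reflect technical spread. At a Benjamini-Hochberg adjusted p under 0.05 the model called 11 of 44 members lower and none higher in ALDH-positive cells, where 9.58% of all genes were called lower and 13.5% higher. The 11 were CDK1, CCNB1, CCNA2, FOXM1, BUB1B, MAD2L1, SPC25, KIF11, KIF14, ANLN and DLGAP5. Of these CCNB1, FOXM1, MAD2L1 and ANLN rest on probe sets that may bind more than 1 transcript, as do 19 of all 44 members. The count was 5 when no filter on level was set, where 410 of 19775 genes were called lower. It was also 5 when limma's variance prior was not allowed to follow the level, where 529 of 12365 genes were called lower.

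Among the genes of mitotic entry, 4 of 10 fell: CDK1, CCNB1, CCNA2 and FOXM1. CDK1, the kinase that starts mitosis, was at 11.26 in the ALDH-positive DOX array and 11.38 in the ALDH-positive control, against 12.23 and 12.25 in the ALDH-negative DOX and control arrays. Both ALDH-positive values lay about 0.9 below both ALDH-negative ones, with an additive difference of -0.92 ± 0.14 (SE, limma adjusted p = 0.000876). CCNA2, cyclin A2, was at 11.14 and 11.31 in ALDH-positive DOX and control cells, against 11.85 and 11.93 in ALDH-negative ones (-0.67 ± 0.16, limma adjusted p = 0.00895). FOXM1, a transcription factor for late cell cycle genes, stood at 10.82 and 10.78 in ALDH-positive DOX and control cells and 11.59 and 11.70 in ALDH-negative ones (-0.85 ± 0.17, limma adjusted p = 0.00461). Neither gene's fractions overlapped. Those of PLK1 and CCNF, which did not pass, did not overlap either, and the share of all genes without overlap was not counted. CCNB1, cyclin B1, differed less, at 11.86 and 12.02 in ALDH-positive DOX and control arrays against 12.34 and 12.44 in ALDH-negative ones (-0.45 ± 0.12, limma adjusted p = 0.0201). Its relative CCNB2, cyclin B2, lay on the other side, at 11.16 and 11.25 in ALDH-positive DOX and control cells and 10.61 and 10.82 in ALDH-negative ones, a difference of 0.49 ± 0.19 that did not pass (limma adjusted p = 0.0782). On their brightest probe sets the cyclin B genes thus ordered the fractions in opposite ways, on arrays that did not overlap for either gene. A dimmer CCNB2 probe set near the edge of background overlapped. It was at 5.50 and 6.01 in ALDH-positive DOX and control cells, against 5.97 and 5.53 in ALDH-negative ones.

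PLK1, the polo-like kinase, was at 8.05 and 8.15 in ALDH-positive DOX and control cells, against 8.71 and 8.89 in ALDH-negative ones, and its difference of -0.70 ± 0.27 did not pass (limma adjusted p = 0.076). The remaining entry genes did not pass either. CCNF, an F-box cyclin, differed by -0.39 ± 0.21 in the additive model, and the phosphatases CDC25B and CDC25C, which activate CDK1, by -0.18 ± 0.13 and 0.35 ± 0.26. NEK2, a centrosomal kinase, differed by 0.08 ± 0.25.

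None of the 6 genes of the Aurora kinases and the chromosomal passenger complex passed. AURKB, the kinase of that complex, was 2-fold lower in the control pair, at 7.87 in ALDH-positive against 8.90 in ALDH-negative cells (-1.03). In the DOX pair it stood at 8.15 against 8.53 (-0.38). Its fractions did not overlap in the 4 arrays, and the additive difference was -0.71 ± 0.28 (limma adjusted p = 0.0895). AURKA, the centrosomal Aurora kinase, differed by -0.37 ± 0.13 (limma adjusted p = 0.0534), BIRC5, or survivin, by -0.35 ± 0.12 (0.0551) and CDCA8, or borealin, by -0.50 ± 0.23 (0.135). TPX2, which activates Aurora A on the spindle, lay at -0.02 ± 0.16. INCENP lay near the edge of background in all 4 arrays, between 5.63 and 6.05.

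Among the spindle checkpoint genes BUB1B and MAD2L1 fell. BUB1B, which encodes the checkpoint kinase-like protein BUBR1, was at 10.52 and 10.77 in ALDH-positive DOX and control cells, against 11.52 and 11.64 in ALDH-negative ones (-0.93 ± 0.18, limma adjusted p = 0.00318). MAD2L1, the checkpoint protein MAD2, was at 11.42 and 12.03 in ALDH-positive DOX and control cells, against 12.17 and 12.31 in ALDH-negative ones (-0.52 ± 0.15, limma adjusted p = 0.0242). For MAD2L1 the ALDH-positive DOX array lay furthest from the others. TTK, the kinase MPS1, differed by -0.52 ± 0.25, BUB1 by -0.42 ± 0.24 and BUB3 by 0.05 ± 0.11, none past the threshold. Nor did any gene of the anaphase promoting complex and its substrates pass. CDC20, its activator, differed by -0.25 ± 0.15, the ubiquitin-conjugating enzyme UBE2C by 0.12 ± 0.19 and securin, PTTG1, by -0.17 ± 0.11.

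The kinetochore genes divided, although 3 of them encode subunits of 1 complex. SPC25, a subunit of the NDC80 complex that binds microtubules, had the largest fall of the 44, at 8.75 and 9.07 in ALDH-positive DOX and control cells against 9.99 and 10.23 in ALDH-negative ones (-1.20 ± 0.25, limma adjusted p = 0.00457). Its partners NDC80 and NUF2 differed by 0.06 ± 0.22 and -0.09 ± 0.22. CENPF, a large kinetochore protein, was at 11.39 and 11.43 in ALDH-positive DOX and control cells, against 10.90 and 10.89 in ALDH-negative ones (0.52 ± 0.18, limma adjusted p = 0.0529). A second, dimmer CENPF probe set pointed the other way, with -0.37 in the DOX pair and -0.22 in the control pair. CENPA, the centromeric histone H3 variant, and CENPE, a kinetochore motor, differed by 0.19 ± 0.28 and 0.09 ± 0.23.

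Of the 7 kinesins KIF11 and KIF14 fell. KIF11, the motor that pushes spindle poles apart, was at 11.07 and 11.42 in ALDH-positive DOX and control cells, against 11.78 and 11.93 in ALDH-negative ones (-0.61 ± 0.16, limma adjusted p = 0.0159). KIF14, a cytokinesis kinesin, was at 10.30 and 10.94 in ALDH-positive DOX and control cells, against 11.43 and 11.50 in ALDH-negative ones (-0.84 ± 0.20, limma adjusted p = 0.0103). KIF23, a subunit of the centralspindlin complex, was low in 1 array alone on its brightest probe set, and did not pass (-0.87 ± 0.33, limma adjusted p = 0.0723). That probe set was at 8.70 and 10.40 in ALDH-positive DOX and control cells and 10.38 and 10.46 in ALDH-negative ones. Its other, dimmer probe set was at 6.93 and 6.59 in ALDH-positive DOX and control cells and 7.47 and 7.22 in ALDH-negative ones. The other kinesins, KIF20A, KIF2C, KIF4A and KIF18A, lay between -0.38 and 0.10.

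Among the spindle and cytokinesis proteins ANLN and DLGAP5 fell. ANLN, the contractile ring scaffold anillin, was at 10.35 and 11.39 in ALDH-positive DOX and control cells, against 11.78 and 11.85 in ALDH-negative ones (-0.95 ± 0.22, limma adjusted p = 0.00814). DLGAP5, a spindle assembly factor, was at 9.83 and 10.19 in ALDH-positive DOX and control cells, against 10.85 and 10.95 in ALDH-negative ones (-0.89 ± 0.22, limma adjusted p = 0.0115). Both genes were lowest in the ALDH-positive DOX array. PRC1, which bundles midzone microtubules, differed by -0.48 ± 0.17 (limma adjusted p = 0.0636), and ECT2, the exchange factor that starts the cleavage furrow, by -0.18 ± 0.19. NUSAP1 and HMMR, both microtubule-binding, differed by -0.04 ± 0.14 and 0.23 ± 0.16. TOP2A was at 12.68 and 12.85 in ALDH-positive DOX and control cells and 12.69 and 12.74 in ALDH-negative ones (0.05 ± 0.10), so its fractions overlapped.

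**Figure D2:**
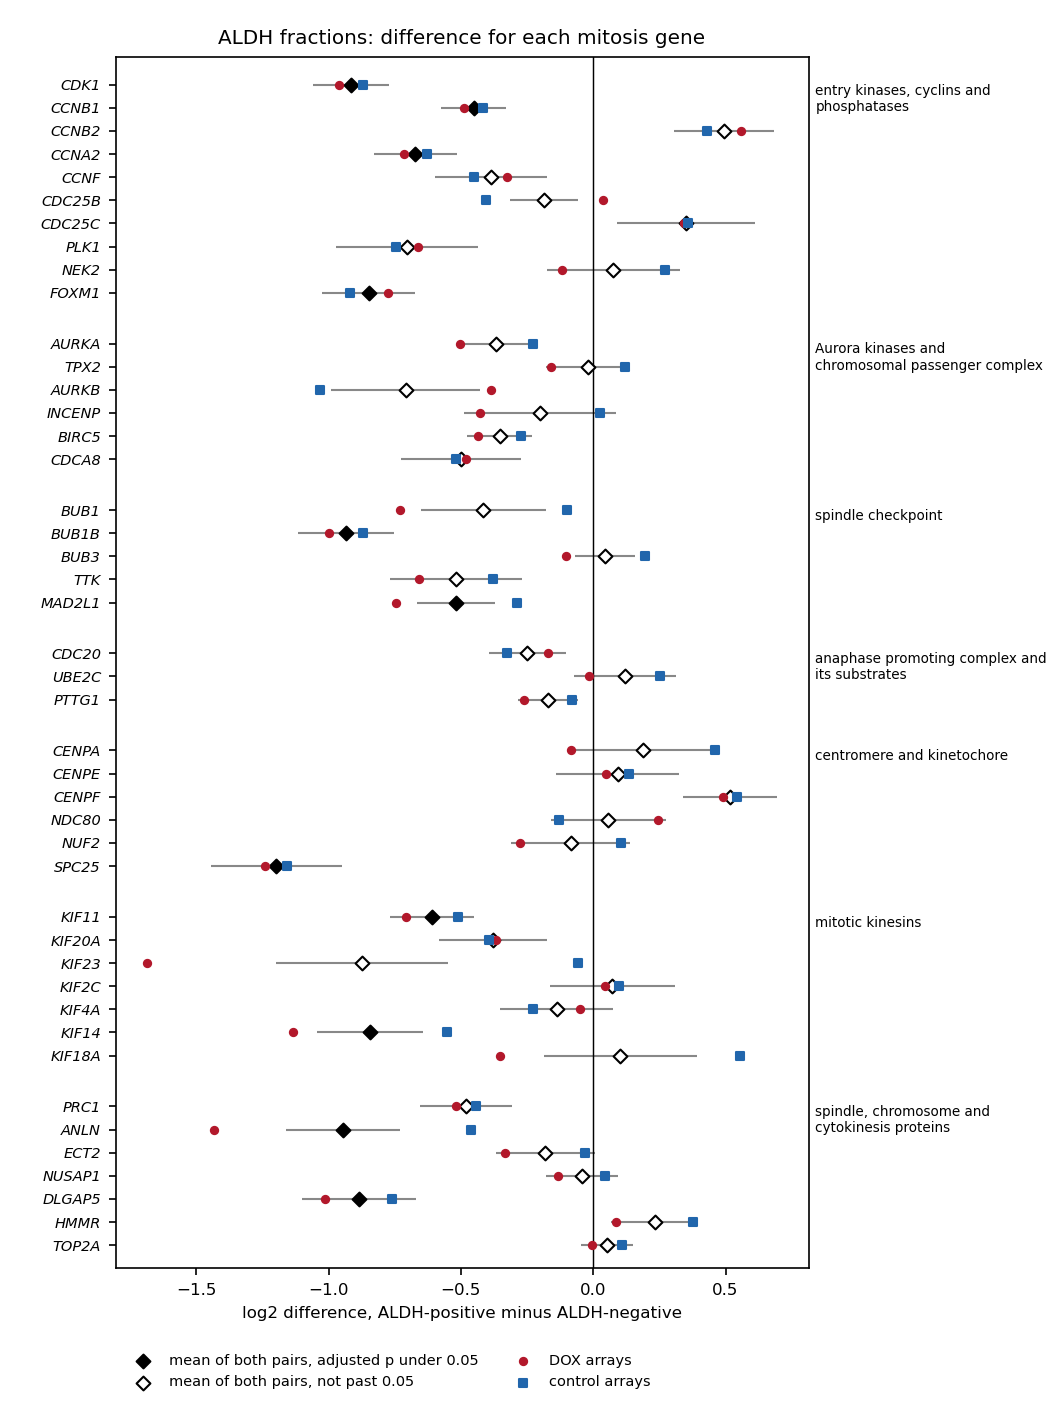
Log2 difference (x axis, ALDH-positive minus ALDH-negative) of each of the 44 genes in the DOX arrays (circles), the control arrays (squares) and as the additive limma estimate (diamonds, bars are 1 SE, filled where the adjusted p is under 0.05). The 11 filled diamonds all lie left of 0, and SPC25 lies furthest at -1.20.

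A list of 110 further mitosis genes, of which 107 were tested, had 31 lower and 2 higher in ALDH-positive cells (29.0% and 1.87%, against 9.58% and 13.5% of all genes). SGO1, the shugoshin that guards centromeric cohesion, had the largest fall among them (-1.77 ± 0.29, limma adjusted p = 0.00106). ARHGAP11A (-1.32 ± 0.27), SKA3, a kinetochore subunit (-1.28 ± 0.26), the kinase PBK (-1.22 ± 0.22) and the nuclear lamin LMNB1 (-1.20 ± 0.20) followed. The 2 that rose were NEK6, a mitotic kinase (0.78 ± 0.23), and ANAPC11, a subunit of the anaphase promoting complex (0.45 ± 0.15).

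Replication and G1/S genes stood further from 0 than the mitosis genes in both ALDH pairs. Of 42 such genes with a probe set, 23 were 2-fold lower in the control pair and 20 in the DOX pair, with medians of -1.04 and -0.94, and the additive model called 32 lower. For the 44 mitosis genes the medians were -0.23 and -0.36. No test compares the lists.

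The promoters of the members share letters that the choice by name did not use. RefSeq promoters (GRCh38.p14, 250 bases before to 50 after the start) were listed for 37 of the 44 genes, 47 promoters in all. Both strands were searched for CCAAT, the letters bound by NF-Y, and for TTTGAA or TTCGAA, the letters of the cell cycle genes homology region (CHR) that MuvB binds. Matches of the 2 kinds may share bases, and each was counted on its own. CCAAT was found in 76.6% of member promoters, against 34.6% of all 35116 promoters. CHR letters were found in 68.1% of them, against 16.4% of all promoters, and both kinds together in 57.4% against 6.38%. In promoters of the 110 further mitosis genes CCAAT was found in 50.8% and CHR letters in 48.4%, and in those of G1/S and replication genes CCAAT in 59.6% and CHR letters in 6.38%. Of 45 CHR matches in member promoters, 31 began within 60 bases of the start. A site that lies in 2 listed promoters of a gene, as in CDC25C and ECT2, was counted in each. Members with CHR letters had a median ALDH difference of -0.23 in the control pair (29 genes) and those without -0.24 (8 genes). The medians were -0.35 and -0.31 in the DOX pair, and for the DOX difference -0.32 and -0.14 in ALDH-positive cells and -0.06 and -0.06 in ALDH-negative ones, none of which was tested. The promoters shown are of CDK1, BUB1B and SPC25, which fell, CCNB2, which did not, PLK1, and KIF23 and ANLN, the members furthest below 0 under DOX. Capitals mark CCAAT and CHR letters on either strand, and for CDK1, with 2 listed starts, the one further along the gene is given.
CDK1, chr10:60778228-60778527, plus strand: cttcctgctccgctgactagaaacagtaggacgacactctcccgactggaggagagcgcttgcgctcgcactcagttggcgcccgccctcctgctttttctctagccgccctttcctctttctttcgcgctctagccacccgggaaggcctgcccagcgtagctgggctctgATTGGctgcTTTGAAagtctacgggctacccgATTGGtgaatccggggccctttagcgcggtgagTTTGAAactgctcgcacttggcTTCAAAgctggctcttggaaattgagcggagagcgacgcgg
BUB1B, chr15:40160819-40161118, plus strand: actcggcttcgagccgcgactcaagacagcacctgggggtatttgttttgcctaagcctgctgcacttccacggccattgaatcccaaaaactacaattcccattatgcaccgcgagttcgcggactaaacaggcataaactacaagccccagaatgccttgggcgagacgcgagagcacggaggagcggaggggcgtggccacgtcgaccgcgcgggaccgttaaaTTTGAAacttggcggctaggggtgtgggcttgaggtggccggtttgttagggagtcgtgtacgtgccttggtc
SPC25, chr2:168890381-168890680, minus strand: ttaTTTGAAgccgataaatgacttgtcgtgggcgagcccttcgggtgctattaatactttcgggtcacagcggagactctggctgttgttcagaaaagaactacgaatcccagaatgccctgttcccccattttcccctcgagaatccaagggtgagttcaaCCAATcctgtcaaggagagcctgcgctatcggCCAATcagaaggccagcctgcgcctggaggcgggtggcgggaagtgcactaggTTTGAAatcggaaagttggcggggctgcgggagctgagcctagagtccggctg
CCNB2, chr15:59104896-59105195, plus strand: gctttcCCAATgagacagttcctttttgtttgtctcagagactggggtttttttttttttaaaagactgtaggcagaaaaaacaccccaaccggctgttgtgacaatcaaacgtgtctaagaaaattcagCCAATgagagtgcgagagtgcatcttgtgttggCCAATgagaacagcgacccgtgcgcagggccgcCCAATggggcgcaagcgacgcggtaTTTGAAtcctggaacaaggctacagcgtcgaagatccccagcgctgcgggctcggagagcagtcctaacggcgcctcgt
PLK1, chr16:23678639-23678938, plus strand: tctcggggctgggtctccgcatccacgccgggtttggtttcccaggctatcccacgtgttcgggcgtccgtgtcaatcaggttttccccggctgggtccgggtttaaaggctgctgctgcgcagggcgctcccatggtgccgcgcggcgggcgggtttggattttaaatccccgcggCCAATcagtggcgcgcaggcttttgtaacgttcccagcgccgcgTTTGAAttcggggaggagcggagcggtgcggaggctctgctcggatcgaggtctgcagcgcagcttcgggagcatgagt
KIF23, chr15:69414099-69414398, plus strand: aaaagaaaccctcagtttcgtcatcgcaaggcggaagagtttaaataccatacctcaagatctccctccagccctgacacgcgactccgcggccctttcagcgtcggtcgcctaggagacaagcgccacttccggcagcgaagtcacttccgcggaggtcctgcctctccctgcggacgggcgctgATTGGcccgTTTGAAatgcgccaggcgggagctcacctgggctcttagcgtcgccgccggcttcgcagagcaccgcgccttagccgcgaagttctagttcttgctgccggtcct
ANLN, chr7:36389612-36389911, plus strand: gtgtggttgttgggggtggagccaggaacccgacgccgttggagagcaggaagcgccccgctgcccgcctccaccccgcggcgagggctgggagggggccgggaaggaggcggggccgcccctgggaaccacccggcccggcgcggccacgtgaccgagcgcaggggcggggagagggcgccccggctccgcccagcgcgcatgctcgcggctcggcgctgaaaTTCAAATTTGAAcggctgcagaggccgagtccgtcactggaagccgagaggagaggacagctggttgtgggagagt
Only BUB1B and ANLN among these 7 hold no CCAAT letters in the window, and all 7 hold CHR letters.

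Under DOX, most members of the ALDH-positive fraction lay slightly lower than in its control on their brightest probe sets, and few of those by much. Over all member probe sets 16 of 79 were 2-fold lower, or 20.3%, against 5.78% of all probe sets, as described further below. In that pair 38 of 44 members lay below 0 (DOX minus control) with a median of -0.25, where 39.1% of all genes lay below 0 with a median of 0.12. Relative to the median of all genes, the members' median was -0.36. By size, 2 members were 2-fold lower (2.3% of all genes) and none higher (3.47% of all genes). Over all genes 422 were 2-fold higher and 280 lower, a split that became 265 and 387 with each array centred on its median. KIF23, ANLN, KIF18A and CDC25B, named next, rest on shared probe sets, ones that may bind more than 1 transcript. KIF23 was at 8.70 with DOX and 10.40 in the control, a difference of -1.70, and ANLN at 10.35 and 11.39, a difference of -1.04. KIF18A, a kinesin that trims spindle microtubules, came next at 8.62 with DOX against 9.44 (-0.82), and then BUB1 at 9.78 against 10.46 (-0.67). On the other side CDC25B was at 12.49 with DOX and 12.11 in the control (0.38) and AURKB at 8.15 and 7.87 (0.27). The median by role was lowest for the kinesins at -0.35 and the Aurora and passenger group at -0.34, and nearest 0 for the entry genes at -0.09.

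In the ALDH-negative fraction the DOX differences were small. There 36 of 44 members lay below 0 with a median of -0.07, where 51.2% of all genes did with a median of 0.00, and none was 2-fold lower (0.0508% of all genes) or higher (0.271%). CDCA8 was the furthest, at 10.15 with DOX and 10.55 in the control (-0.40), followed by AURKB at 8.53 and 8.90 (-0.37). KIF23 was at 10.38 and 10.46 (-0.07) and ANLN at 11.78 and 11.85 (-0.06). The range over the members, from -0.40 to 0.08, was narrower than the range from -1.70 to 0.38 in the ALDH-positive pair. Across the 44 genes the DOX differences of the 2 fractions, which share no array, correlated with a Pearson's r of -0.116 and a Spearman's rho of -0.0303, as a description over genes. By its brightest probe set, KIF23 was the 1 member whose DOX differences lay 2-fold apart between the fractions (-1.63, ALDH-positive minus ALDH-negative, where 2.4% of all genes lay 2-fold or more below 0), and none lay 2-fold above (468 of all genes, or 3.78%, did and 297 lay below, or 297 and 439 with centred arrays). The count of members 2-fold below was 3 with centred arrays. It was 4 without shared probe sets, where 285 of 9809 genes lay 2-fold below and KIF23 itself was at 0.0756. Of 37 further member probe sets 11 lay 2-fold or more below 0, or 29.7%, against 9.06% over all genes, among them CDK1 (-1.37), CCNA2 (-1.34) and ANLN (-2.14). With 1 array a group these differences were not tested.

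The additive model called no member for DOX in either direction. Of all 12365 genes it called 0.00809% higher and 0.0% lower, and 652 genes, or 5.27%, had an unadjusted p under 0.05, 3 of them members. Fitted on probe sets it called 0.0% either way for DOX. PLK1 was at 8.05 with DOX and 8.15 in the control of ALDH-positive cells (-0.10), and at 8.71 and 8.89 in ALDH-negative ones (-0.18), with an additive DOX difference of -0.14 ± 0.27 (limma adjusted p = 0.963). CDK1 differed by -0.07 ± 0.14, CCNB1 by -0.13 ± 0.12, AURKB by -0.05 ± 0.28, BUB1B by -0.19 ± 0.18, TOP2A by -0.11 ± 0.10 and FOXM1 by -0.03 ± 0.17. These values are of the brightest probe sets. The 3 other CDK1 probe sets differed by -1.31, -1.17 and -1.57 in ALDH-positive cells and by -0.17, -0.24 and -0.20 in ALDH-negative ones. The model takes a response that differs between the fractions as error, which applies to KIF23 (-0.89 ± 0.33, limma adjusted p = 0.855) and ANLN (-0.55 ± 0.22, limma adjusted p = 0.858). It applies as well to those 3 CDK1 probe sets.

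**Figure D3:**
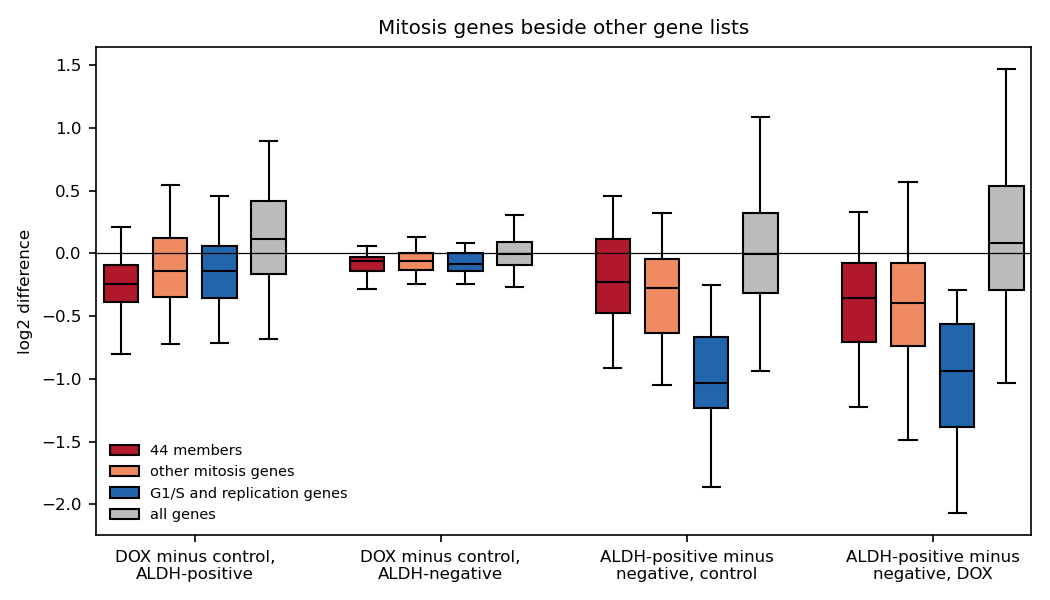
Log2 differences (y axis) of the 44 members, the 107 further mitosis genes, the 42 G1/S and replication genes and all genes in the 4 pairs of arrays, as boxes (quartiles and median) with whiskers that leave out the outermost 5% at each end. The members' medians are -0.25 and -0.07 for DOX in ALDH-positive and ALDH-negative cells and -0.23 and -0.36 for ALDH in control and DOX cells.

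The probe sets of a gene differed among themselves for DOX in ALDH-positive cells. The 22 members with several probe sets add 40 further ones to the brightest, and 35 of these reached the level of 6 in that pair. Of the 35, 14 were 2-fold lower with DOX, or 40.0%, against 9.28% of such further probe sets over all genes. In the ALDH-negative pair none of 36 was, against 0.0679% over all genes. Within a gene, the mean difference of the further probe sets lay below that of the brightest in 19 of 22 members in the ALDH-positive pair, with a median gap of -0.38, against 60.6% of 6454 genes and a median gap of -0.11.

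CDK1 shows the size of this. Its brightest probe set was at 11.26 with DOX and 11.38 in the control of ALDH-positive cells (-0.11), whereas its 3 others differed by -1.31 (8.99 against 10.30), -1.17 (9.44 against 10.60) and -1.57 (7.02 against 8.59). In ALDH-negative cells the same 4 probe sets differed by -0.02, -0.17, -0.24 and -0.20. CCNA2 had -0.17 on its brightest probe set and -1.51 on the other (9.11 with DOX against 10.62), and NEK2 -0.44 and -1.94 (6.34 against 8.28). ECT2 had -0.32 on its brightest probe set and -1.50 and -1.70 on the others, and CDC25C -0.09 against -1.63. In 2 of the 14, of CCNF and CDC25C, the DOX array lay under 6, so those differences have no firm size. ANLN was lower on both probe sets, by -1.04 and -2.36 (7.10 against 9.47). KIF23 ran the other way, with -1.70 on the brightest probe set and 0.33 on the other, which was at 6.93 with DOX and 6.59 in the control. Over all probe sets of CCNB1, AURKA, BIRC5, KIF2C and TOP2A the lowest difference in that pair was -0.50, in BIRC5.

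**Figure D4:**
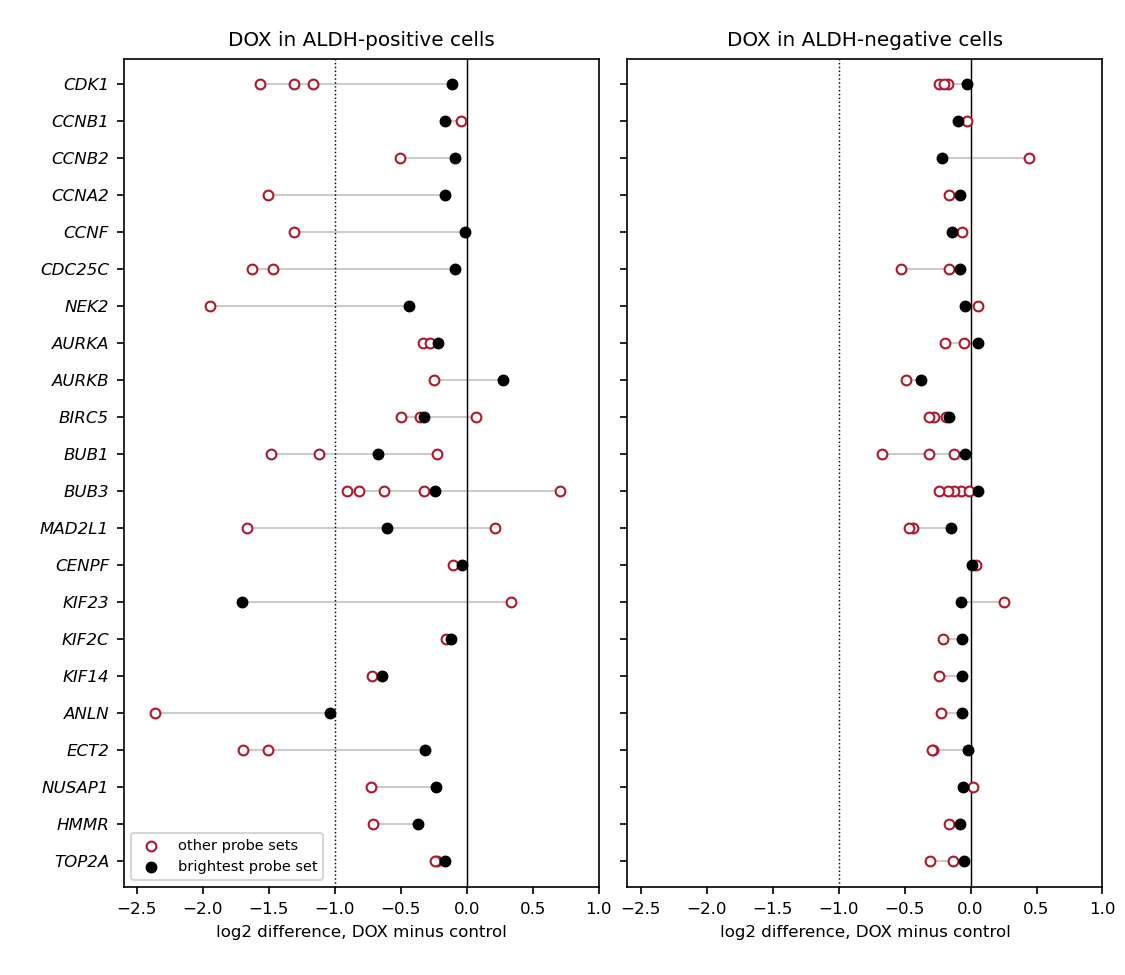
Log2 difference (x axis, DOX minus control) of each probe set at a level of 6 or more in any array, for the 22 members with several probe sets, in ALDH-positive cells (left) and ALDH-negative cells (right). Filled points are the brightest probe set of a gene and open ones the others, and the dotted line marks 2-fold lower. Open points reach -2.36 on the left, while none passes the dotted line on the right.

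Control probe sets placed along the ACTB transcript also differed in that pair. The one at the 3' end was at 13.67 in the ALDH-positive DOX array and 13.73 in its control (-0.07), whereas the middle one differed by -0.67 and the 5' one by -0.46. In the ALDH-negative pair the same 3 lay between -0.11 and 0.06. For GAPDH the differences in the ALDH-positive pair were 0.16 at the 3' end, 0.25 in the middle and 0.39 at the 5' end. The part of this in the members' differences was not tested, and the files used here do not place the members' probe sets along their transcripts.

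The further probe sets bear on the ALDH comparison too. In the control pair, which holds no DOX array, 10 of 37 further member probe sets were 2-fold lower in ALDH-positive cells, or 27.0%, against 5.98% over all genes. In 3 of the 10, of BUB1, BUB3 and TOP2A, the ALDH-positive array lay under 6. Only 1 of the 37, of CDC25C, was 2-fold higher (7.79 against 6.75), where 691 of 12082 were over all genes. CDK1 differed there by -0.87 on its brightest probe set and by -1.29, -1.41 and -1.59 on the others, and CCNA2 by -0.63 and -1.02. In the DOX pair 16 of 35 were 2-fold lower, or 45.7%, against 11.8% over all genes. The others of CDK1 differed there by -2.43, -2.34 and -2.95. The control probe sets differed between the fractions too. In the DOX pair ACTB was at -0.19 at the 3' end, -0.64 in the middle and 0.17 at the 5' end. GAPDH was there at 0.16, 0.44 and 0.81 in the same order. In the control pair ACTB was at -0.06, 0.0045 and 0.53, and GAPDH at 0.04, 0.18 and 0.35. The part of these control probe sets in the members' counts was not tested. The same limma model on all 24852 probe sets at the level of 6 called 21 of 81 member probe sets lower and none higher in ALDH-positive cells (6.08% and 7.23% of all probe sets), over 15 genes and including all 4 of CDK1. The values of CDK1 there ran from -0.92 ± 0.14 to -2.27 ± 0.35 (limma adjusted p = 0.00736 and 0.00753). The 15 genes included AURKB, BIRC5, BUB1, BUB3 and TOP2A, each through a probe set other than the brightest, and did not include MAD2L1. The TOP2A one was at 5.25 and 5.49 in ALDH-positive DOX and control cells, against 6.32 and 6.62 in ALDH-negative ones, and the BUB1 one at 5.12 and 5.35 against 6.01 and 6.68, both under 6 in the ALDH-positive arrays.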

How the data were processed

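Gene expression of 4 samples was measured on Affymetrix arrays with 1 array a group. The authors deposited log2 levels per probe set, made with RMA per the submitters' processing notes, which name no version. RMA corrects background, normalises quantiles and summarises probes, so a global change in RNA amount is removed. The values were used without further scaling. An annotation dated 2016 gave 41097 probe sets 1 gene and 1801 several. Differences between arrays were taken on the log2 scale. limma 3.58.1 in R 4.3.3 (lmFit, eBayes with trend, two-sided p, Benjamini-Hochberg over 12365 genes, prior of 11.6 degrees of freedom) fitted ALDH fraction and DOX additively. The steps were tested on simulated data. Other steps used Python 3.11.15 with pandas 2.3.3.

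The members, the lists and the rule for naming genes were chosen with earlier results of these data known. Every member was eligible; array values are given for those called by size or by the model and for CDK1, CCNB1, PLK1, AURKB, BUB1B, TOP2A and FOXM1. Those of CCNB2, CENPF, KIF18A, BUB1, CDC25B, CDCA8, INCENP and NEK2, and the probe sets of uncalled members, were added after their values were seen. Names are given for up to 5 each way of the further mitosis genes. The number of arrays limits the precision. Alternatives were centring on the array median of the 12365 genes, cyclic loess, a threshold of 7 or none, a floor at 6, averaging all probe sets of a gene, dropping shared ones (named _x_at or _s_at, which may bind more than 1 transcript), 1.5-fold, eBayes without trend or robust, and a fit on probe sets.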

Additional observations from a re-analysis of the deposited data

How the results depend on the processing

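No paired analysis was possible because each group held 1 array and so no replicate numbers pair samples, although the additive model itself compares the fractions within each DOX state. No array could be left out since the additive model then has no residual degree of freedom. Of the recomputed counts and medians 131 stayed within 1.5 times, or within the binomial interval of the median, and 24 did not. Many that stayed were counts of 0 compared with 0. Among them were every DOX count of the additive model and every size count for DOX in ALDH-negative cells. The interval treats the members as independent, which was not tested. For DOX in ALDH-positive cells the members' median was -0.38 with centred arrays and -0.35 with the mean of probe sets, and over all genes centring turned 422 higher and 280 lower into 265 and 387. With the mean of probe sets 5 members were 2-fold lower (246 of 11310 genes over all). Without shared probe sets 4 members were (271 of 9582 genes), and 6 were lower at 1.5-fold (829 of 12151 genes). KIF23 there was at -0.69 with the mean of probe sets and at 0.33 without shared probe sets, where its ALDH difference in DOX cells was -0.55 and its difference between fractions 0.0756, from the remaining probe set. For DOX in ALDH-negative cells the median was -0.11 both with the mean of probe sets and without shared ones. For ALDH in control cells, 8 members were lower at 1.5-fold (1478 of 12052 genes). Without shared probe sets 1 member, CDC25C, was 2-fold higher (598 of 9522 genes). For ALDH in DOX cells 8 members were 2-fold lower, with a median of -0.53, by the mean of probe sets (585 of 11400 genes). At 1.5-fold 14 were lower (1542 of 12228 genes). For the DOX difference between fractions, 3 members were lower, with a median of -0.29, with centred arrays (439 of 12365 genes). With the mean of probe sets 2 were (246 of 11529 genes), and without shared ones 4 (285 of 9809 genes). At 1.5-fold 4 members were lower and 1 higher (927 and 1827 of 12365 genes). In the additive model for ALDH, 5 members were lower without a filter on level (410 of 19775 genes) and 5 without trend (529 of 12365 genes). In the fit on probe sets 21 probe sets were lower (1511 of 24852 over all genes). One member, CENPF, was higher at a level of 7, with values under 6 set to 6 and with robust eBayes. Genes called higher in these 3 settings were 1658 of 10982, 1454 of 12365 and 1645 of 12365. Without shared probe sets 34 members were left. CCNB1 and MAD2L1 did not pass with centred arrays, without the filter or without trend, and MAD2L1 not with cyclic loess. KIF11, KIF14 and ANLN did not pass without the filter or without trend, DLGAP5 not without the filter and CCNA2 not without trend. The causes were not tested.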
